A study of Homo sapiens with 12 samples.

Results

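The genes described here are endothelial cell specific molecule 1 (ESM1), the vascular endothelial growth factors VEGFA, VEGFB and VEGFC, and the receptors KDR, FLT1, TIE1, TEK, NRP1 and NRP2. They are 10 of the 59248 rows of the deposited gene tables, found by their Ensembl identifiers. All 10 were among the 16489 genes with enough counts to be tested. They were chosen from results of the same contrast that is described here, in which ESM1 was one of the larger decreases, and the differences between the groups are therefore given as a description, without p-values.

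RNA was sequenced from SJSA-1 cells, an established human osteosarcoma line. The sh1 group held 6 libraries of cells stably expressing RUNX2 shRNA-1, and the shNC group held 6 libraries of cells stably expressing a scramble shRNA. Both hairpins were carried by a lentiviral vector with puromycin selection, so both groups went through the same procedure of infection and selection. The cells of each group received a different lentivirus, so differences that arose during infection or selection cannot be told apart from the hairpin. The RUNX2 protein binds DNA and directs the formation of bone cells. The hairpin sh1 was picked by the study from several for its effect on RUNX2. The design has 1 hairpin against RUNX2 and 1 control hairpin, and no source says whether the libraries of a group were grown or infected separately, so the spread between them may be technical.

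RUNX2 had 21.6 to 27.4 CPM (counts relative to the TMM-scaled library size) in sh1 and 35.5 to 46.2 CPM in shNC, and its mean in sh1 was 61.9% of the shNC mean. Total gene counts were 11239638 to 16346022 in sh1 and 15328312 to 19992974 in shNC. The lowest total was that of sh1 replicate 3, in which rows without an Ensembl identifier took 1.23% of the counts, the highest share of the 12 libraries. Of the genes tested, 2108 were higher in sh1 and 2194 were lower at an adjusted p under 0.05 in edgeR's quasi-likelihood test.

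ESM1 encodes endocan, a secreted proteoglycan that carries a single chondroitin or dermatan sulfate chain and is made by the tip cells of growing vessels and by some tumours. In endothelium, VEGFA acts mainly through KDR, FLT1 binds VEGFA and VEGFB, and VEGFC binds KDR and FLT4. The neuropilins NRP1 and NRP2 are co-receptors for these ligands and for class 3 semaphorins, while TEK is the receptor of the angiopoietins and TIE1 is its partner. In tumours, the ligands are commonly made by the tumour cells and the receptors by the vessels.

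The SJSA-1 libraries are bulk RNA of a cultured line, and fewer cells of a type and less RNA per cell cannot be told apart in them. MDM2, which lies in the amplified chromosome region for which SJSA-1 is known, had 84.9 ± 8.49 FPKM (fragments relative to gene length and library size) in sh1 and 68.1 ± 6.37 FPKM in shNC (SD, n = 6 each). It was called higher in sh1 (edgeR log2 fold change 0.30, adjusted p = 0.0042). Of 8 genes listed for this region, all tested, 3 were higher, against 12.8% of all genes tested, and 0 lower. In a group, 6 of the 8 reached 1 FPKM. Of 24 endothelial markers, 11 had enough counts to be tested and 6 reached 1 FPKM in a group. The summed level of the 24 was 33.2 to 41.4 FPKM in sh1 and 31.7 to 39.6 FPKM in shNC. Most of it was ENG, a TGF-beta co-receptor that other cells also make, with 21.5 ± 1.96 FPKM in sh1 and 18.4 ± 1.77 FPKM in shNC. The defining marker CDH5, the cadherin of endothelial junctions, had 0.118 ± 0.0343 FPKM in sh1 and 0.0739 ± 0.0332 FPKM in shNC, VWF, CLDN5 and ERG were lower still in both groups, and SOX17 had no count. Other markers of the list were present in both groups. ROBO4, a guidance receptor, had 4.90 ± 0.444 FPKM in sh1 and 5.09 ± 0.834 FPKM in shNC, and EGFL7, a secreted factor, had 4.47 ± 0.382 FPKM in sh1 and 3.86 ± 0.602 FPKM in shNC. NOS3, ESAM and S1PR1 were between 0.974 and 2.73 FPKM in both groups. The list was thus mixed, with these genes detected and CDH5, VWF, CLDN5, ERG and SOX17 at or near 0.

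The promoters of ESM1, KDR and TIE1 are shown because these genes had the 3 largest differences among the 10. Each line gives the 250 bases before the RefSeq transcript start, 5′ to 3′ on the strand of the gene, from GRCh38.p14. The ESM1 stretch is chr5:54985594-54985843 (minus strand), the KDR stretch is chr4:55125596-55125845 (minus strand) and the TIE1 stretch is chr1:43300732-43300981 (plus strand). Capitals mark matches to the core letters of the hypoxia response element, ACGTG or GCGTG.
ESM1: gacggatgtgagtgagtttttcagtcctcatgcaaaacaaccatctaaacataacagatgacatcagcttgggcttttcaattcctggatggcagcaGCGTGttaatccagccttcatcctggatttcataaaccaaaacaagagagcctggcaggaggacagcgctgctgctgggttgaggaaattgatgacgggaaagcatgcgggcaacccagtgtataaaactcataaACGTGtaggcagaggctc
KDR: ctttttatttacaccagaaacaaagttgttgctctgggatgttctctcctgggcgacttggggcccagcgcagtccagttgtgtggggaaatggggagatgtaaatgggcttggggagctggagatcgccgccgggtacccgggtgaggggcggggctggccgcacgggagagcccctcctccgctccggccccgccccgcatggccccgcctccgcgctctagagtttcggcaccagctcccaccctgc
TIE1: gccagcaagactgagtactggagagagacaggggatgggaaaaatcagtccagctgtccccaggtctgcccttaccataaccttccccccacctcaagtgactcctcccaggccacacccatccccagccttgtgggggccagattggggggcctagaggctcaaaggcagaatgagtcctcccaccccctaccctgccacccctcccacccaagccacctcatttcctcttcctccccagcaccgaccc

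RefSeq promoters of 300 bases, 250 before and 50 after the start, were matched for 8 of the 10 genes. They were searched on both strands for RUNX letters (TGTGGT or TGCGGT), AP-1 letters (TGANTCA) and the hypoxia core (ACGTG or GCGTG). Among all 35116 promoters in the RefSeq table, 19.6% held the RUNX letters, 7.7% the AP-1 letters and 48.4% the hypoxia core. The ESM1 promoter held neither RUNX nor AP-1 letters and had 2 hypoxia cores, which begin at bases -153 and -18 from the start. KDR had 1 RUNX match, TGTGGT at base 35 after the start and so outside the stretch shown. VEGFB, VEGFC and FLT1 each had 1 hypoxia core, and the windows of TIE1, TEK and NRP2 held none of the letters searched. These matches are a description of letters, and their absence says nothing of binding elsewhere.

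ESM1 (ENSG00000164283) lies on chromosome 5 from 54977867 to 55022671 on the minus strand (GRCh38, GENCODE 44). It had 43.0, 63.1, 82.3, 57.6, 48.1 and 45.4 CPM in sh1 replicates 1 to 6, and 231, 252, 160, 128, 277 and 220 CPM in shNC replicates 1 to 6. The highest sh1 library, replicate 3, was below the lowest shNC library, replicate 4, by 45.5 CPM. The mean of sh1 was 26.8% of that of shNC, with a log2 fold change of -1.90 (SE 0.18, 95% interval -2.28 to -1.53). Leaving out each library in turn gave -2.03 to -1.80. In order of fold change from the most negative, ESM1 stood at place 15 of all genes tested.

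ESM1 was the most abundant of the 10 genes in shNC, at 77.5 ± 20.3 FPKM, and had 21.0 ± 5.51 FPKM in sh1. By mean FPKM it was at place 2142 of the genes tested in sh1 and place 406 in shNC. Its coefficient of variation was 26.1% in sh1 and 26.8% in shNC, so the libraries of each group varied about equally in proportion. No row of a tested gene overlaps it. A non-coding gene on the same strand that was not tested (ENSG00000240535) overlaps its upstream end. The RefSeq start behind the promoter shown lies inside these GENCODE bounds, which reach further upstream.

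**Figure D1:**
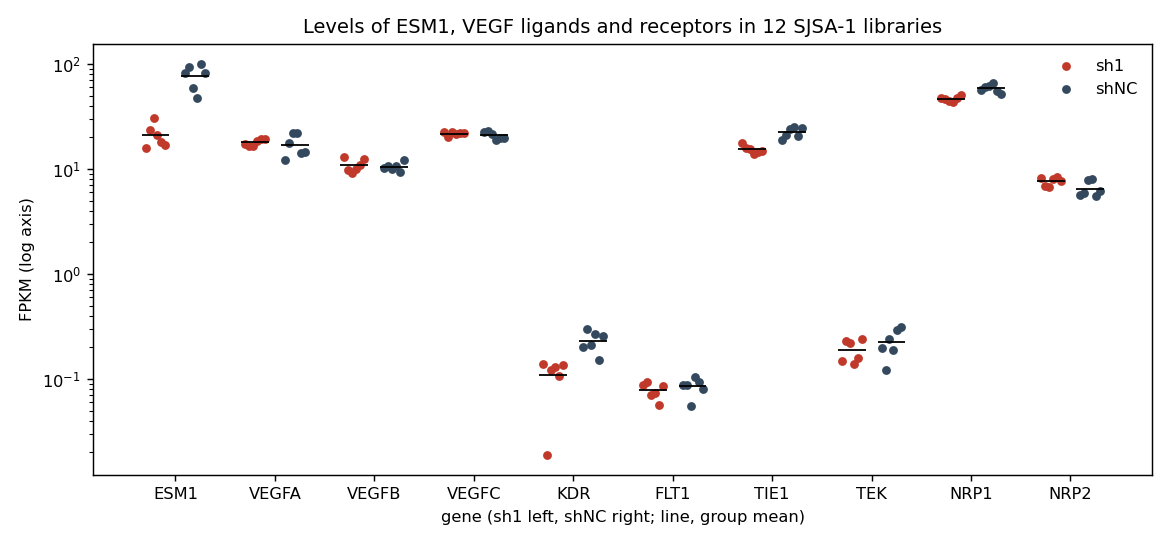
FPKM of each of the 10 genes in the 12 libraries, on a log axis, with sh1 in red on the left and shNC in dark grey on the right. Points are libraries and lines are group means. The 6 sh1 libraries lie below the 6 shNC libraries for ESM1, KDR, TIE1 and NRP1, and overlap them for the other 6 genes.

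The 3 VEGF ligands differed little between the groups on average. VEGFA (ENSG00000112715, chromosome 6, 43770184 to 43786487) had 239 to 279 CPM in sh1 (median 258) and 181 to 317 CPM in shNC (median 232). All sh1 values lay inside the shNC range, in which replicates 3 and 4 were the highest. Its log2 fold change was 0.06 (SE 0.11, interval -0.18 to 0.30), and leaving out single libraries gave -0.02 to 0.15.

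VEGFB (ENSG00000173511, chromosome 11, 64234584 to 64239264), a ligand of FLT1, had 14.1 to 19.9 CPM in sh1 (median 16.1) and 14.9 to 18.7 CPM in shNC (median 16.3), with a log2 fold change of 0.03 (SE 0.090, interval -0.16 to 0.22). VEGFC (ENSG00000150630, chromosome 4, 176683538 to 176792922), the ligand that drives lymphatic growth, had 48.7 to 54.6 CPM in sh1 (median 52.8) and 45.1 to 56.5 CPM in shNC (median 50.3). The groups overlapped for both genes, and the sh1 libraries of VEGFC were the closest together of any of the 10 genes, with a coefficient of variation of 3.98%. Its log2 fold change was 0.04 (SE 0.062, interval -0.09 to 0.17). These intervals limit the differences of the ligands and do not show that the groups are equal. Gene counts do not resolve the splice forms of VEGFA.

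Of the VEGF receptors, KDR (ENSG00000128052, chromosome 4, 55078481 to 55125595), also called VEGFR2, was near the limit of detection. It had 14, 2, 9, 14, 11 and 13 counts in sh1 replicates 1 to 6 and 24, 37, 28, 27, 17 and 27 counts in shNC replicates 1 to 6. Each sh1 library was below each shNC library in CPM, at 0.123 to 0.915 CPM in sh1 (median 0.826) and 1.02 to 1.95 CPM in shNC (median 1.55), and sh1 replicate 2 stood apart as the lowest. The log2 fold change was -1.11 (SE 0.28, interval -1.70 to -0.52), and without sh1 replicate 2 it was -0.87. The level was 0.109 ± 0.0456 FPKM in sh1 and 0.232 ± 0.0530 FPKM in shNC, which is among the lowest of all genes tested.

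FLT1 (ENSG00000102755, chromosome 13, 28300346 to 28495145), also called VEGFR1, had 10 to 19 counts in sh1 and 14 to 21 counts in shNC. The groups overlapped, and the log2 fold change was -0.12 (SE 0.20, interval -0.55 to 0.30). The log2 fold change of TIE1, -0.55, was at the lower limit of this interval as rounded. The soluble form of FLT1 is not separated from the full receptor in gene counts.

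TIE1 (ENSG00000066056, chromosome 1, 43300982 to 43323108), the orphan partner of TEK, was the most abundant endothelial receptor kinase of the set. It had 119, 105, 104, 92.3, 96.2 and 99.8 CPM in sh1 replicates 1 to 6, and 131, 140, 162, 166, 141 and 166 CPM in shNC replicates 1 to 6. The groups did not overlap, with a gap of 12.2 CPM between sh1 replicate 1 and shNC replicate 1. The sh1 mean was 68.1% of the shNC mean, a log2 fold change of -0.55 (SE 0.070, interval -0.70 to -0.41).

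TEK (ENSG00000120156, chromosome 9, 27109141 to 27230174), the angiopoietin receptor, had 11 to 18 counts in sh1 and 11 to 24 counts in shNC. The groups overlapped, and the log2 fold change was -0.26 (SE 0.24, interval -0.77 to 0.25). In FPKM, TIE1 exceeded TEK by a ratio of 84.6 ± 21.8 in sh1 and 108 ± 38.3 in shNC (SD, n = 6 each). The TIE1 transcript was thus present in SJSA-1 cells with very little transcript of its partner.

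The neuropilins, by contrast, were both well expressed. NRP1 (ENSG00000099250, chromosome 10, 33177492 to 33336262) had 547, 538, 513, 503, 542 and 577 CPM in sh1 replicates 1 to 6, and 678, 701, 717, 762, 656 and 601 CPM in shNC replicates 1 to 6. All sh1 libraries were below all shNC libraries, with a gap of 23.9 CPM. The sh1 mean was 78.2% of the shNC mean, a log2 fold change of -0.35 (SE 0.056, interval -0.47 to -0.24).

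NRP2 (ENSG00000118257, chromosome 2, 205681990 to 205798133) had 115, 95.7, 93.3, 111, 115 and 105 CPM in sh1 replicates 1 to 6, and 81.1, 81.1, 109, 110, 79.4 and 86.1 CPM in shNC replicates 1 to 6. The groups overlapped because shNC replicates 3 and 4 lay within the sh1 range, while the other 4 shNC libraries were below every sh1 library. The log2 fold change was 0.22 (SE 0.088, interval 0.03 to 0.40). The ratio of NRP1 to NRP2 in FPKM was 6.15 ± 0.588 in sh1, from 5.46 to 6.78, and 9.19 ± 1.08 in shNC, from 7.95 to 10.4, so that every sh1 library had a lower ratio than every shNC library.

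**Figure D2:**
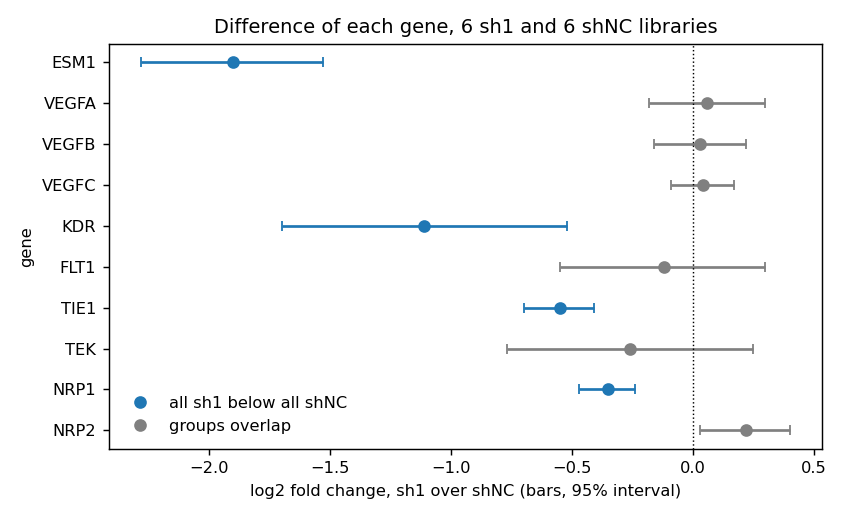
Log2 fold change of each of the 10 genes, sh1 over shNC, with the 95% interval from edgeR (6 libraries a group). ESM1 is at -1.90, KDR at -1.11, TIE1 at -0.55 and NRP1 at -0.35, drawn in blue because all sh1 libraries were below all shNC libraries, while grey marks the genes whose groups overlap.

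Counted over the 10 genes, 4 (ESM1, KDR, TIE1 and NRP1) passed an adjusted p of 0.05 and were lower, against 13.3% of all genes tested. None passed as higher, against 12.8% of all genes tested. At an unadjusted p under 0.05 edgeR gave 1 higher, NRP2, and the same 4 lower, and neither DESeq2 nor limma called a gene of the 10 higher. NRP2 passed the adjusted threshold as higher without sh1 replicate 3 (log2 fold change 0.26), without shNC replicate 3 (0.28) or without shNC replicate 4 (0.29). All sh1 libraries were below all shNC libraries in 4 of the 10, against 6.08% of all genes tested, and above them in 0 of the 10, against 5.84%. Since the genes were chosen from this contrast, nothing is read from these counts. Without sh1 replicate 3, the library of lowest total, the log2 fold changes were -2.03 for ESM1, -1.13 for KDR, -0.55 for TIE1 and -0.33 for NRP1, and the same number of genes, 4 of the 10, passed as lower. The median log2 fold change over all 12 libraries was -0.19 over the 10 genes and -0.00 over all genes tested.

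In order of FPKM, the mean levels in sh1 were NRP1 46.7, VEGFC 21.8, ESM1 21.0, VEGFA 18.0, TIE1 15.4, VEGFB 10.8, NRP2 7.64, TEK 0.191, KDR 0.109 and FLT1 0.0780. In shNC they were ESM1 77.5, NRP1 59.1, TIE1 22.4, VEGFC 20.9, VEGFA 17.1, VEGFB 10.5, NRP2 6.52, KDR 0.232, TEK 0.226 and FLT1 0.0849. The order of ESM1 and NRP1 at the top, and of KDR and TEK near the bottom, thus differed between the groups. Among neighbours in this order, the library ranges of VEGFC, ESM1, VEGFA and TIE1 overlapped in turn in sh1, as did those of KDR and FLT1. In shNC the ranges overlapped between ESM1 and NRP1, between TIE1, VEGFC, VEGFA and VEGFB in turn, and between KDR and TEK. The ratio of ESM1 to VEGFA was 1.19 ± 0.379 in sh1, from 0.870 to 1.84, and 4.94 ± 2.06 in shNC, from 2.17 to 7.05.

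The genes with profiles most like that of ESM1 were looked up over the 12 libraries, as the smallest root mean square distance of log2 CPM from each gene's own shNC mean, among 12648 genes. They were DKK1, a secreted Wnt inhibitor, at 0.338, IL13RA2, a decoy receptor for interleukin 13, at 0.355, IL1B, the cytokine interleukin 1 beta, at 0.378, the pseudogene FAM86GP at 0.407 and MMP1, an interstitial collagenase, at 0.408. DKK1 had 2.15 ± 0.172 CPM in sh1 and 6.80 ± 1.61 CPM in shNC. IL1B, the only abundant one, had 82.3 ± 14.9 CPM in sh1 and 293 ± 50.9 CPM in shNC. The distance takes in the size of the sh1 difference, so a small one does not mean that libraries within a group varied together. In shNC replicate 4, ESM1 was at its lowest in shNC, at 128 CPM, as were DKK1 (4.79 CPM) and MMP1 (7.51 CPM). IL1B, at 337 CPM there, was near its highest, and IL13RA2 and FAM86GP were lowest in other shNC libraries. For TIE1 the nearest were RAP1GAP2 at 0.0769, PYGB at 0.0882 and ETV4 at 0.0900, and for NRP1 they were ANKH at 0.0692, ATG12 at 0.0726 and KIF3B at 0.0727. For KDR they were CEACAM1 at 0.491, ARL14EPL at 0.510 and CA13 at 0.515.

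**Figure D3:**
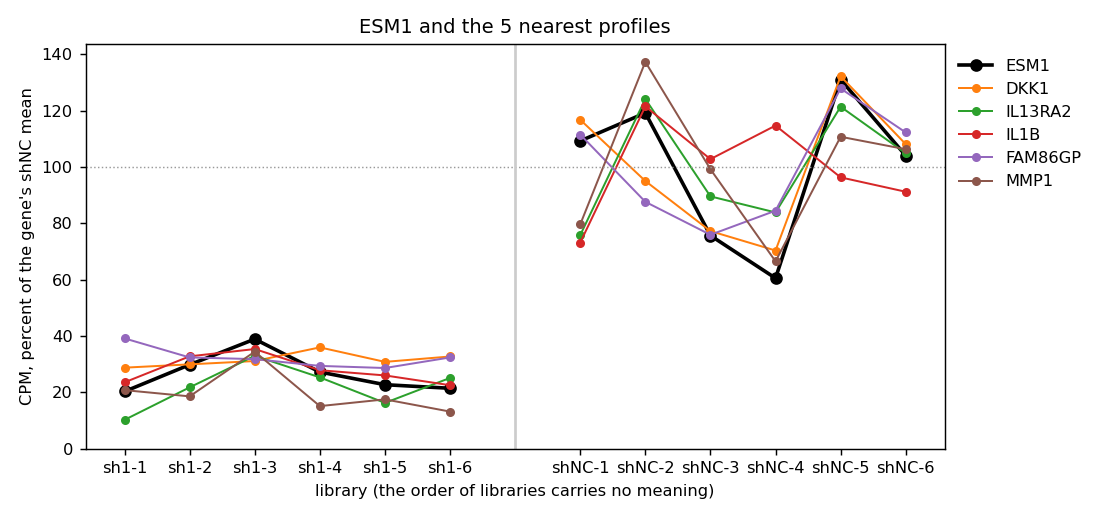
CPM of ESM1 (black) and of its 5 nearest genes in each library, as a percent of each gene's shNC mean, sh1 on the left. All 6 genes lie far below 100 in every sh1 library, and ESM1 is lowest in shNC replicates 3 and 4 among the shNC libraries.

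Within 1 Mb on either side of ESM1, 14 other genes were tested. CDC20B, near the limit of detection, was lower in sh1, at 0.358 ± 0.154 CPM against 0.842 ± 0.172 CPM in shNC (edgeR log2 fold change -1.18, SE 0.27, adjusted p = 0.0035). Its bounds overlap those of GPX8, which lies on the opposite strand with 56.4 ± 1.95 CPM in sh1 and 62.8 ± 7.56 CPM in shNC. Without a strand mark, reads of the pair cannot be told apart where their exons overlap. Overlap of exons was not checked. None of the other 13, which are ARL15, SNX18, GPX8, MCIDAS, CCNO, DHX29, MTREX, PLPP1, SLC38A9, IL31RA, IL6ST, IL6ST-DT and ENSG00000264281, passed the test.

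The other genes of these pathways were taken from lists that do not contain the 10 genes. Of 127 genes listed, 104 were tested, and 27 were higher (26.0%, against 12.8% of all genes tested) and 16 lower (15.4%, against 13.3% of all genes tested) in sh1 at an adjusted p under 0.05 in edgeR over all genes. When each library was left out in turn, 6 of the 27 (KDM3A, NCK1, PLXNA3, UNC5B, VHL and YES1) and 5 of the 16 (DUSP5, HPSE, NOS3, PXN and THBS1) lost their call in at least 1 of the 12 fits. The counts per list that follow are to be read against the same shares of all genes. Without sh1 replicate 3 there were 25 higher and 16 lower. The median log2 fold change of the 104 was 0.07, against -0.00 over all genes tested.

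Of the other VEGF ligands and receptor, PGF, a ligand of FLT1, rose to 14.0 ± 1.09 FPKM in sh1, against 7.73 ± 0.807 FPKM in shNC (edgeR log2 fold change 0.84, SE 0.066, adjusted p = 1.1e-07). Every sh1 library was above every shNC library, at 76.9 to 92.4 CPM in sh1 and 40.5 to 51.0 CPM in shNC. FLT4, the receptor of VEGFC, fell to 0.0657 ± 0.0273 FPKM in sh1, against 0.172 ± 0.0353 FPKM in shNC (edgeR log2 fold change -1.36, SE 0.24, adjusted p = 0.00042). VEGFD, at no more than 6 counts, was not tested.

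Of 8 angiopoietins, angiopoietin-like genes and TIE partners, 5 were tested, 1 rose and 1 fell. ANGPT2, the context-dependent antagonist of TEK, fell to 0.224 ± 0.0463 FPKM in sh1, against 0.645 ± 0.172 FPKM in shNC (edgeR log2 fold change -1.56, adjusted p = 1.2e-05). ANGPTL4, a secreted lipase inhibitor, rose by 0.77 on the log2 scale (edgeR adjusted p = 0.013). PTPRB, the phosphatase that acts on TEK, was the most abundant, with 1.54 ± 0.205 FPKM in sh1 and 1.35 ± 0.211 FPKM in shNC, and did not pass the test.

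Of 12 neuropilin partners tested, 4 rose and 3 fell. SEMA3A, the repulsive ligand of NRP1, fell by 0.62 on the log2 scale (edgeR adjusted p = 4.4e-05), while SEMA3F, a ligand of NRP2, rose by 0.50 (adjusted p = 0.00026). The receptors PLXND1 and PLXNA4 changed in opposite directions, by 0.48 (adjusted p = 7.4e-05) and -0.40 (adjusted p = 0.00012). PLXNA1 was the most abundant partner, at 41.0 ± 4.29 FPKM in sh1 and 36.3 ± 5.95 FPKM in shNC, and did not pass.

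Of 16 genes of VEGF receptor signalling tested, 6 rose and 2 fell. PTK2, the focal adhesion kinase, rose by 0.34 on the log2 scale (edgeR adjusted p = 6.2e-05), AKT1 by 0.32 (adjusted p = 0.00049) and VAV2 by 0.22 (adjusted p = 0.0095). NOS3, the endothelial nitric oxide synthase, fell by 0.37 (adjusted p = 0.020), and this call was lost in 3 of the 12 fits that left out 1 library (sh1 replicates 4 and 6 and shNC replicate 2). PXN, an adaptor of focal adhesions, was the most abundant, at 45.7 ± 3.70 FPKM in sh1 and 51.2 ± 4.69 FPKM in shNC, and its call (log2 fold change -0.18, adjusted p = 0.045) was lost in 10 of those fits. Of the 6 that rose, NCK1 (adjusted p = 0.049) lost its call in 8 of those fits and YES1 (adjusted p = 0.043) in 7.

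Of 12 genes that respond to VEGF in endothelium, 3 rose and 2 fell. ICAM1, an adhesion molecule, rose to 1.00 ± 0.143 FPKM in sh1, against 0.460 ± 0.119 FPKM in shNC (edgeR log2 fold change 1.11, adjusted p = 0.00012), and PFKFB3, a glycolytic regulator, rose by 0.21 (adjusted p = 0.015). DUSP5, a nuclear phosphatase of ERK and the most abundant of the list, had 67.3 ± 15.4 FPKM in sh1 and 94.9 ± 20.8 FPKM in shNC, and its call (log2 fold change -0.51, adjusted p = 0.020) was lost in 2 of the 12 fits that left out 1 library (sh1 replicates 1 and 6). The third gene that rose, UNC5B, a netrin receptor, was at the threshold (log2 fold change 0.51, adjusted p = 0.050 as rounded) and lost its call in 9 of those fits. The other fall was that of ANGPT2, given above.

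Of 16 tested genes of oxygen sensing and hypoxia, 7 rose and 2 fell. EGLN3, an oxygen-dependent hydroxylase that is itself induced by hypoxia, rose to 1.14 ± 0.309 FPKM in sh1, against 0.257 ± 0.0753 FPKM in shNC (edgeR log2 fold change 2.11, SE 0.20, adjusted p = 7.8e-07). SLC2A1, the glucose transporter GLUT1, rose by 0.52 (adjusted p = 2.6e-05) and ARNT, the partner of HIF1A, by 0.34 (adjusted p = 0.00076), while HIF1AN, the inhibitor of HIF1A, fell by 0.33 (adjusted p = 3.9e-05). HIF1A, the most abundant, had 203 ± 9.43 FPKM in sh1 and 226 ± 14.5 FPKM in shNC. It was the other gene that fell (edgeR log2 fold change -0.17, adjusted p = 0.013). NDRG1, P4HA1, VHL and KDM3A also rose, but VHL and KDM3A lost their calls in some fits that left out 1 library. The 7 genes that did not pass were EPAS1, EGLN1, EGLN2, CA9, BNIP3, PDK1 and ANKRD37. Among these, the log2 fold change was 0.03 for BNIP3, 0.16 for PDK1 and 0.78 for CA9 (edgeR adjusted p = 0.052 for CA9).

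In this list shNC replicate 3 was the highest shNC library for 11 of 16 genes and replicate 4 for 2 of 16, and both were the top pair for 7 of 16. How often these libraries were the highest over all genes tested was not counted. These counts therefore do not show anything particular to the list. NDRG1 had 397 to 674 CPM in sh1 and 238 to 613 CPM in shNC, and CA9 had 18.6 to 39.1 CPM in sh1 and 8.05 to 36.6 CPM in shNC, with the top shNC value of both in replicate 3. The same 2 libraries were the highest shNC libraries for VEGFA, NRP2 and NRP1 and the lowest for ESM1. They were also the highest shNC libraries for RUNX2, with 44.2 CPM in replicate 3 and 46.2 CPM in replicate 4. Without shNC replicate 3 the log2 fold change of VEGFA was 0.15 and that of NRP2 0.28, and without shNC replicate 4 they were 0.15 and 0.29. The part of the hypoxia genes in the spread of VEGFA, NRP2, NRP1 and ESM1 was not tested.

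**Figure D4:**
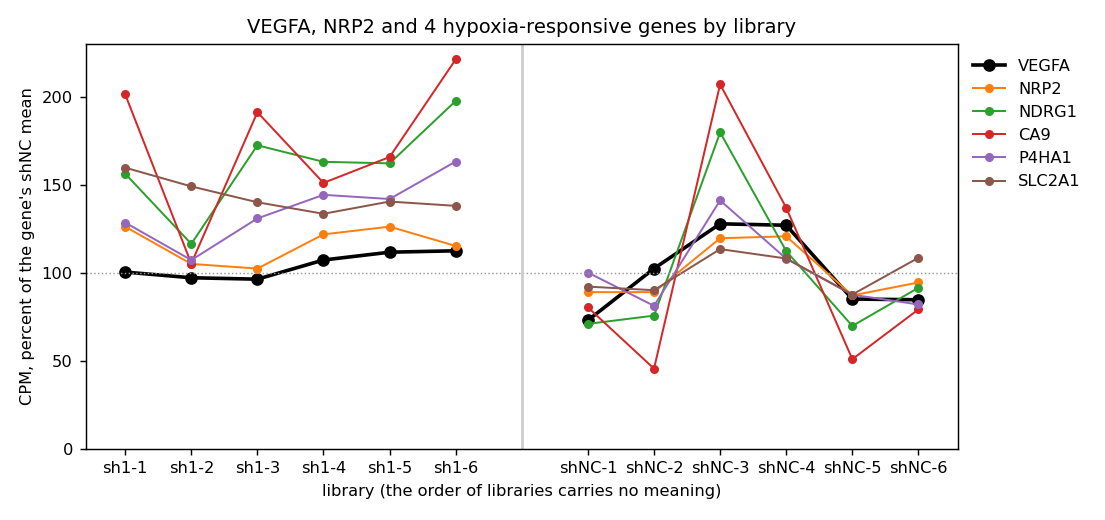
CPM of VEGFA (black), NRP2 and 4 hypoxia-responsive genes, picked after their values were seen, in each library, as a percent of each gene's shNC mean, sh1 on the left. VEGFA and NRP2 are highest among the shNC libraries in replicates 3 and 4. Of the 4 hypoxia-responsive genes, CA9 did not pass the test. BNIP3 and PDK1, which also did not pass, are not drawn.

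Of 19 modulators of VEGF and angiogenesis tested, most of them extracellular but SPRY2, SPRY4 and SPRED1 intracellular, 2 rose and 5 fell. CXCL8, the chemokine interleukin 8, fell to 19.8 ± 4.21 FPKM in sh1, against 60.2 ± 14.9 FPKM in shNC (edgeR log2 fold change -1.62, adjusted p = 4.5e-07), and FGF2, a growth factor of endothelium, fell by 0.59 (adjusted p = 1.3e-05). CCN1, a matricellular protein and the most abundant of the list, rose to 346 ± 34.7 FPKM in sh1, against 248 ± 12.3 FPKM in shNC (log2 fold change 0.46, adjusted p = 4.8e-05). HSPG2, which encodes perlecan, rose by 0.77 (adjusted p = 0.00028).

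Endocan carries a chondroitin or dermatan sulfate chain, and 16 of the 19 enzymes tested that build such chains did not pass the test. DSEL, an epimerase of dermatan sulfate, fell by 0.57 on the log2 scale (edgeR adjusted p = 0.0020), while DSE, the other epimerase, rose by 0.21 (adjusted p = 0.0075) and CHSY1, a chondroitin synthase, by 0.16 (adjusted p = 0.020). The call of CHSY1 was lost with a replicate block and with no filter on low counts. CHPF, the most abundant, had 18.4 ± 3.05 FPKM in sh1 and 18.4 ± 2.47 FPKM in shNC.

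Of the 6 tested genes for binding partners of ESM1 and for proteins that bind those partners (ICAM1, ICAM2 and MET), 2 rose and 1 fell. ITGB2, a subunit of the integrin LFA-1, rose to 1.46 ± 0.180 FPKM in sh1, against 0.886 ± 0.124 FPKM in shNC (edgeR log2 fold change 0.70, adjusted p = 0.00019), while its partner subunit ITGAL was too low to test. ICAM1 and FGF2, given above, are the other gene that rose and the gene that fell. FN1, fibronectin and the most abundant, had 103 ± 22.2 FPKM in sh1 and 71.5 ± 30.3 FPKM in shNC and did not pass.

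**Figure D5:**
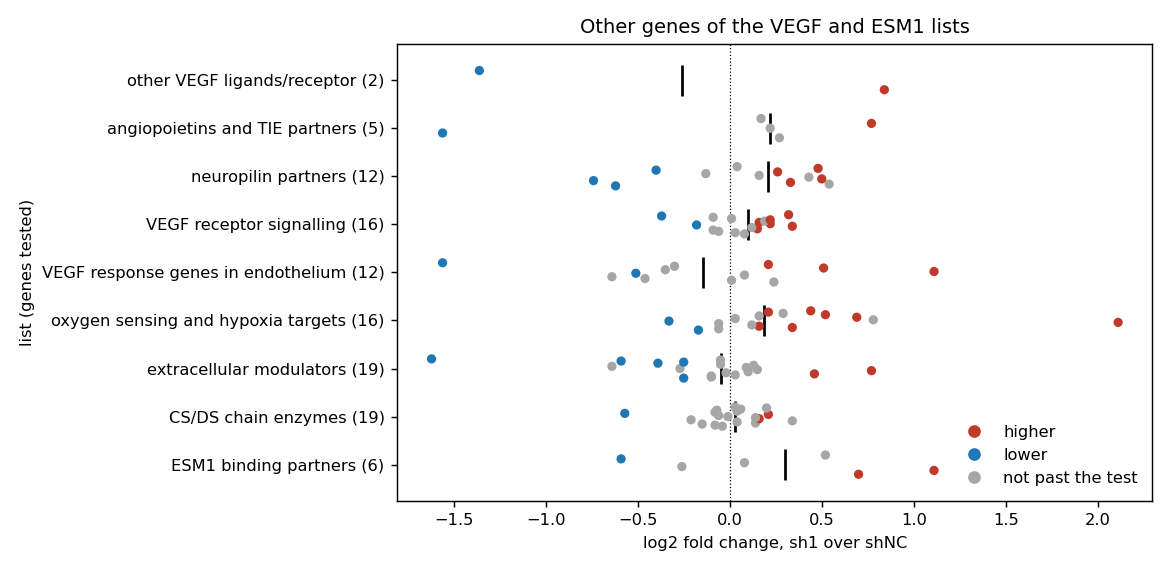
Log2 fold change, sh1 over shNC, of the other genes tested in each list, with the number tested in brackets. Points are genes, red for higher, blue for lower and grey for not past the test, and black bars are medians. The list names are loose. The extracellular modulators include SPRY2, SPRY4 and SPRED1, which act inside cells. The ESM1 binding partners include ICAM1, ICAM2 and MET, which bind the partners, and the angiopoietin list includes angiopoietin-like genes. EGLN3 at 2.11 is the highest point and CXCL8 at -1.62 the lowest.

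Markers of other cell types moved in part with the groups. Of 11 endothelial markers tested, 2 rose and 2 fell. Those that rose were MMRN2, at no more than 18 counts (edgeR log2 fold change 1.01, adjusted p = 0.016), and ENG (0.21, adjusted p = 0.030). The call of ENG was lost in 4 of the 12 fits that left out 1 library. S1PR1, a lipid receptor, fell to 1.23 ± 0.252 FPKM in sh1, against 2.73 ± 0.644 FPKM in shNC (edgeR log2 fold change -1.18, adjusted p = 3.9e-05). The other fall was that of NOS3, given above, while ROBO4 and EGFL7 did not pass. Of 10 pericyte and smooth muscle markers, 7 were tested, 4 rose and 1 fell, with a summed level of at least 7.72 FPKM in every sh1 library and of 3.78 to 5.94 FPKM in shNC. Of 10 leukocyte and erythroid markers, 2 were tested and both rose, LAPTM5 being the only one to reach 1 FPKM, at 11.3 ± 1.17 FPKM in sh1 and 5.89 ± 1.46 FPKM in shNC, while PTPRC, which defines leukocytes, was near 0. Of 12 osteoblast markers, 7 were tested, 2 rose and 1, RUNX2, fell, and SPARC was the most abundant, at 474 ± 41.5 FPKM in sh1 and 297 ± 20.2 FPKM in shNC, while SP7, ALPL and IBSP were at or near 0. The part of these markers in the differences of ESM1, TIE1, NRP1 and KDR was not tested.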

How the data were processed

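RNA of the 12 SJSA-1 libraries was enriched for polyadenylated RNA and sequenced as read pairs, with a kit that does not mark strand. Reads were aligned by the authors with HISAT2 to GRCh38, and the deposited counts are whole read pairs per gene from featureCounts. The deposited FPKM values were derived by the authors from these counts. Versions of these tools: not given in the sources used here. A deposited table of counts divided by size factors was not used. Rows without an Ensembl identifier (0.468% to 1.23% of counts) have numbered names whose origin is not given, and they stayed in library totals and tests. Of 58676 Ensembl identifiers, 58207 were matched to GENCODE 44.

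The groups were compared on the counts by the quasi-likelihood test of edgeR 4.0.16 (R 4.3.3) after its default filter and TMM scaling, with Benjamini-Hochberg adjustment over 16489 genes and a threshold of 0.05. Standard errors and 95% intervals come from the same fit, with a common biological coefficient of variation of 0.106. The code was tested on simulated data. Alternatives were other scalings, other filters, DESeq2 1.42.0, limma 3.58.1 on log2(FPKM + 1) and log2(FPKM + 0.1), a replicate block and leaving out each library. Figures were drawn with matplotlib 3.10.9.

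The genes and lists were chosen with earlier results of these data known. Genes named were the 10, RUNX2, the 5 nearest profiles of ESM1 and 3 of KDR, TIE1 and NRP1, up to 4 genes of each list with the smallest p-value and its most abundant gene, abundant markers, and genes within 1 Mb of ESM1. Defining markers, genes that lost their call and the hypoxia genes shown by library were added after their values were seen. The metabolome was not analysed here.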

Additional observations from a re-analysis of the deposited data

Results flagged for a closer look

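Within the groups of 6, single libraries stood far from the others in 12 of 162 checks of the 10 genes and of other called genes, where chance gives about 1 in 20, or 8.1. Only 1 of the 20 checks of the 10 genes was among them. KDR had 0.123 CPM in sh1 replicate 2 and 0.701 to 0.915 CPM in the other sh1 libraries.

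In sh1 replicate 3, the library with the lowest total, 5 genes stood apart. PTK2 had 155 CPM there and 135 to 140 CPM in the other sh1 libraries, and ARNT had 50.3 CPM against 42.5 to 44.8 CPM. MMP1 had 3.89 CPM against 1.49 to 2.35 CPM. NOTCH3 had 1.41 CPM against 2.74 to 3.07 CPM, and COL1A1 had 8.57 CPM against 16.0 to 19.1 CPM.

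FAM86GP had 2.61 CPM in sh1 replicate 1 and 1.91 to 2.16 CPM in the other sh1 libraries. DUSP5 had 144 CPM in shNC replicate 1 and 260 to 284 CPM in the other shNC libraries. EGLN3 had 2.95 CPM in shNC replicate 3 and 1.51 to 1.96 CPM in the other shNC libraries. SEMA3C had 113 CPM in sh1 replicate 6 and 93.4 to 99.3 CPM in the other sh1 libraries, and YES1 had 95 CPM in sh1 replicate 1 and 105 to 111 CPM in the others. KDM3A had 112 CPM in shNC replicate 3 and 89.4 to 97.5 CPM in the other shNC libraries.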

How the results depend on the processing

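ESM1, TIE1 and NRP1 were lower under every alternative run, and KDR under each that tested it, since a minimum of 10 counts in every library left KDR out. With limma on log2(FPKM + 1) the log2 fold change of KDR was -0.15, because the added 1 exceeds its level. No gene of the 10 was called higher in the reported fit. With no filter on low counts 1 was, NRP2, and the fits without 1 library each gave 0 to 1, the gene again being NRP2 (without sh1 replicate 3, shNC replicate 3 or shNC replicate 4). Genes called over the whole table were 1680 to 2438 higher and 1650 to 2214 lower. Of 71 genes called outside the 10 (all those of the pathway lists, and those named among the markers, nearest profiles and neighbours), 57 kept their call under every alternative that tested them. The 14 that lost it under some were CHSY1, DUSP5, ENG, HPSE, KDM3A, NCK1, NOS3, PLXNA3, PXN, SRC, THBS1, UNC5B, VHL and YES1.

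Both groups have replicate numbers 1 to 6. Same-numbered libraries did not deviate together from their group means (correlation over genes -0.162 to 0.0334), so the numbers were not taken as pairs. With the number as a replicate block, 1680 genes were higher and 1701 lower, 4 of the 10 genes were called lower, and ESM1 had -1.89. KDR, FLT1 and TEK had at most 37 counts in any library, which limits what can be said of them. The same limit holds for FLT4, with at most 31 counts.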
